A study of Homo sapiens with 12 samples.

Results

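The genes described here make cholesterol and fatty acids, control that synthesis, or take up and export lipid. The list names 36 genes, which were matched by symbol to the annotation of an Affymetrix whole-transcript array. Of these, 34 had a row of their own in the deposited table, HSD17B7 had only a row shared with HSD17B7P2 and is therefore uncertain, and FDFT1 was not analysed here. The 35 measured genes were read within a table of 20546 rows that carried a gene symbol.

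The arrays measured RNA from L-428 and L-1236, established Hodgkin lymphoma lines, which derive from B cells that have lost much of their B-cell gene expression. EBF1 is a transcription factor of early B-cell development. Cells of each line were transduced either with tGFP alone, a green fluorescent protein that served as the control, or with a construct of tGFP and EBF1, spelled tGPF-IRES-EBF1 in the treatment notes and tGFP/EBF1 in the sample titles. All 4 groups were grown for 8 days in serum-containing medium and sorted for tGFP, so that the control cells had also been transduced and sorted. Each group held 3 samples that the design calls independent. No source used here says whether they came from separate transductions, and p-values measure the spread between these samples. Each condition was studied in established lines only, with EBF1 supplied by a vector whose promoter is not given in the sources used here.

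Cholesterol is built from acetyl-CoA through mevalonate, isoprenoids, squalene and lanosterol. When sterols in the endoplasmic reticulum run low, SCAP carries the transcription factors SREBP1 and SREBP2 to the Golgi for cleavage, and the freed fragments switch on genes of synthesis and uptake. INSIG proteins hold SCAP back when sterols are plentiful. Receptors of the LDL receptor family bring lipoproteins and other ligands into the cell, and ABC transporters export cholesterol.

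Values below are deposited log2 signals, on which 1 unit is a 2-fold difference. They compare 1 gene between arrays and do not rank genes against each other. A gene is said to have risen or fallen where limma's moderated test gave an adjusted p of 0.05 or less over all 20546 rows. In bulk RNA a change in the number of cells with a transcript and a change in the amount per cell cannot be told apart. The 2 EBF1 comparisons share no array, but each shares its control arrays with the comparison of the lines and all its arrays with the difference of the effects.

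The EBF1 signal followed the labels. It was 8.63, 8.37 and 8.34 in L-428 control cells and 12.96, 12.98 and 12.93 with EBF1, a 22.8-fold difference, and 7.24, 7.13 and 7.16 in control cells and 13.07, 13.27 and 13.10 with EBF1 in L-1236, a 62.8-fold difference (limma, adjusted p = 6.87e-18 and 4.47e-20). The L-1236 control values lie below their array medians, where the signal may include background, so that fold may understate the difference. The row of EBF1 also lists PDGFRB. Array medians lay between 7.19 and 7.31, and arrays of 1 group correlated at 0.992 to 0.997 across rows. L-428 tGFP replicate 3 and L-1236 tGFP/EBF1 replicate 1 stood apart from their groups, with interquartile ranges of 2.28 against 2.49 and 2.47, and of 2.17 against 2.31 and 2.26, and results that rest on them are given without them. None of the 7 Hodgkin cell markers examined lay below the array median on every array, and of 4 B-cell markers 1, MS4A1, did. PAX5 averaged 7.67 in L-428 and 9.51 in L-1236 control cells. With EBF1, CD79A rose by 0.23 in L-428 and by 1.18 in L-1236, and CD79B rose by 0.26 in L-1236. The L-428 control mean of CD79A, 6.96, lay below the array medians. In L-1236 the control means of CD79A and CD79B also lay below them. PAX5, with a mean of 7.88 with EBF1 in L-428 and a change of -0.14 in L-1236, passed in neither line, nor did MS4A1. The difference of the PAX5 effects, L-428 minus L-1236, was 0.34 and passed. Of the Hodgkin cell markers, CCL22 alone passed in L-428, rising by 1.03. In L-1236, 2 of them rose, CCL22 by 1.53 among them, and 1 fell.

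With EBF1, 2 of the 35 genes rose and 3 fell in L-428, while 5 rose and 4 fell in L-1236. The change common to both lines was a rise of LSS, the enzyme that closes squalene epoxide into lanosterol. LRP1, a large endocytic receptor, moved in opposite directions. It rose 2.69-fold in L-1236 and fell in L-428, and it was the 1 gene of the list to pass the study's limit of 2-fold in an EBF1 comparison. The other changes were under 1.5-fold and lay in HMGCS1, SREBF2 and LRP8 in L-428 and in ACAT2, IDI1, GGPS1, MSMO1, SC5D, SREBF1 and FASN in L-1236.

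These counts stand beside a background over all tested rows. In L-428, 2.62% of rows rose and 1.72% fell. In L-1236, 3.69% rose and 5.95% fell. Rows that also passed 2-fold made up 0.0973% in L-428, where no gene of the list did so, and 0.146% in L-1236. In both directions together, 14.3% of the list passed in L-428 against 4.34% of all rows, and 25.7% in L-1236 against 9.64%. Brightness differs between these sets, so dim rows were also removed, keeping rows whose mean in any group lay above the median of all values. Then 6 of 32 genes passed in L-428 against 7.46% of rows, and 9 of 32 in L-1236 against 15.7%. The median change over the list was -0.048 in L-428 and -0.037 in L-1236, beside 0.0037 and 0.0080 over all rows, with genes on both sides of 0. Without L-428 tGFP replicate 3 the L-428 median was -0.087.

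**Figure D1:**
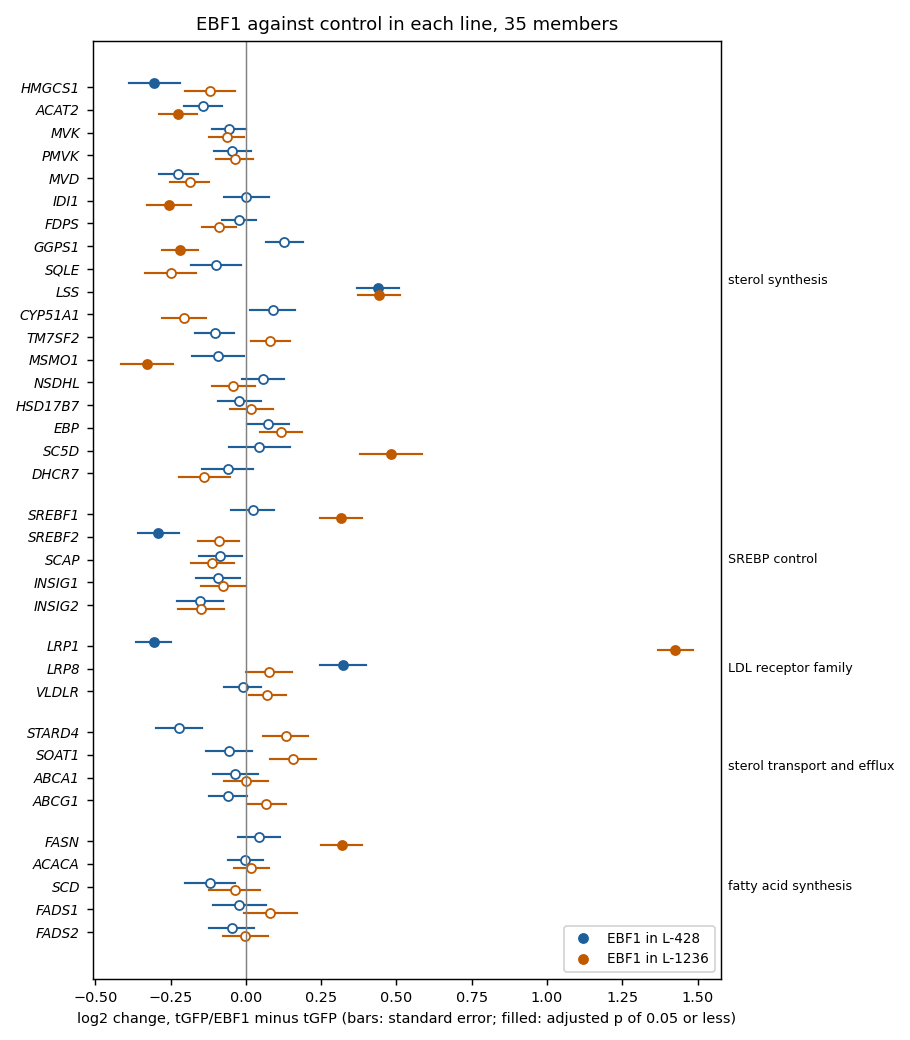
Log2 change with EBF1 (tGFP/EBF1 minus tGFP) of the 35 measured genes in L-428 (blue) and L-1236 (orange), ordered by role. Bars are standard errors of the fit, and filled points passed an adjusted p of 0.05. Most genes lie within 0.3 of no change, LSS lies at 0.44 in both lines, and LRP1 lies at -0.31 in L-428 and 1.43 in L-1236.

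Among the receptors, LRP1 gave the largest EBF1 change of the list. LRP1 binds many ligands, among them lipoprotein remnants and protease complexes, and delivers them to endosomes. Its signal in L-428 was 8.04, 7.97 and 7.94 in control cells and 7.65, 7.67 and 7.72 with EBF1. In L-1236 it was 9.02, 9.07 and 8.99 in control cells and 10.42, 10.53 and 10.40 with EBF1. The control and EBF1 arrays did not overlap in either line: the EBF1 arrays were the lowest in L-428 and the highest in L-1236. LRP1 fell by 0.31 in L-428 (SE 0.058, limma, adjusted p = 0.00372) and rose by 1.43 in L-1236 (SE 0.058, limma, adjusted p = 1.23e-11). The difference between these effects, L-428 minus L-1236, was -1.73 (95% interval, not adjusted for the number of rows, -1.90 to -1.56, limma, adjusted p = 4.32e-10). All 3 calls held with each of the 12 arrays left out in turn. The highest adjusted p then was 0.0285 in L-428 and 5.41e-10 in L-1236.

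LRP1 is abundant in macrophages and fibroblasts, whose markers were therefore read beside it. Of 8 macrophage markers, 7 lay below the array median on every array and none passed the test with EBF1 in either line. Their mean log2 signal was 6.58 to 6.60 in L-1236 control arrays and 6.57 to 6.72 with EBF1. Of 6 fibroblast markers, 4 lay below the median on every array and none passed, with mean signals of 6.62 to 6.64 and 6.65 to 6.72 in the same groups. In L-428 the macrophage markers averaged 6.38 to 6.54 in control cells and 6.41 to 6.50 with EBF1, and the fibroblast markers 6.60 to 6.69 and 6.60 to 6.64. At an unadjusted p of 0.05 none of these markers passed with EBF1 in either line. Between the control cells of the lines, 2 of the 8 macrophage markers (25%) were higher in L-1236, beside 21.7% of all rows. No fibroblast marker differed in that comparison. T-cell markers all lay below the median on every array, and 1 of 5, CD3D, rose in L-1236, by 0.32.

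The promoter of LRP1 is shown as that of a gene that passed in both lines. Its window holds the core letters of an EBF site. RefSeq windows (assembly GRCh38.p14) run from 250 bases before a gene's start to 50 after it. They were found for 31 of the 36 genes. The motif searched was CCCNNGGGA on both strands, which 8.86% of 35116 promoters and 4 of the 31 (FDPS, LRP1, STARD4 and FADS1) held. The LRP1 window is chr12:57128233-57128532 on the plus strand, and capitals mark the match, which begins at position -158 from the start and reads CCCNNGGGA on the opposite strand.
LRP1: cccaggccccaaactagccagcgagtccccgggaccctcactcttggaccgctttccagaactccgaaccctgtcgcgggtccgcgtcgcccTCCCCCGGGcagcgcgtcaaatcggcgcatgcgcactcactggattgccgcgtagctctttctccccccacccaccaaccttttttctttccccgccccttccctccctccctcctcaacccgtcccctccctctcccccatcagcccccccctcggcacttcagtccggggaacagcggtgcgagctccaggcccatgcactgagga
Of the other 3 genes with this match, none passed the EBF1 test in either line. The log2 changes in L-428 and L-1236 were -0.022 and -0.09 for FDPS, -0.22 and 0.13 for STARD4, and -0.022 and 0.081 for FADS1. A match is a run of letters and was not tested as a binding site.

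LRP8 is a receptor of the same family that binds reelin and selenoprotein P. Its signal in L-428 was 10.30, 10.25 and 9.99 in control cells and 10.52, 10.49 and 10.49 with EBF1, so the EBF1 arrays were all higher. LRP8 rose by 0.32 (SE 0.076, limma, adjusted p = 0.0189). The call was lost without any 1 of the 3 L-428 EBF1 arrays, with an adjusted p of up to 0.0816. Changes were 0.23 to 0.38 over each array left out in turn. In L-1236 the arrays overlapped, at 11.09, 11.09 and 11.02 in control cells and 11.07, 11.27 and 11.08 with EBF1, and the change of 0.077 did not pass (adjusted p = 0.647). The difference of the effects, 0.24, did not pass either (limma, adjusted p = 0.249, 95% interval 0.017 to 0.47). VLDLR, the remaining receptor of the list, lay below the median of every array, with log2 changes of -0.011 in L-428 and 0.071 in L-1236 that did not pass.

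In the sterol synthesis pathway, 1 of 18 measured genes rose and 1 fell in L-428, with a median change of -0.033. In L-1236, 2 rose and 4 fell, with a median of -0.10. The medians were -0.075 in L-428 without tGFP replicate 3 and -0.061 in L-1236 without tGFP/EBF1 replicate 1, so their order rests on these arrays. LSS rose alike in both lines. Its signal was 8.77, 8.64 and 8.49 in L-428 control cells and 9.08, 9.04 and 9.09 with EBF1. In L-1236 it was 9.28, 9.20 and 9.20 in control cells and 9.63, 9.76 and 9.61 with EBF1. The EBF1 arrays lay above every control array of their line. The rise was 0.44 in L-428 and 0.44 in L-1236, each with an SE of 0.069 (limma, adjusted p = 0.000645 and 0.000259), or 1.35-fold and 1.36-fold. The difference of the effects was -0.0036, with a 95% interval of -0.21 to 0.20 (limma, adjusted p = 0.992). Both rises passed with each single array left out.

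The promoter window of LSS is shown as that of the gene that rose in both lines, at chr21:46228725-46229024 on the minus strand. It holds no match to CCCNNGGGA. It holds an E-box, CACGTG, which starts at base 41 after the gene's start and is in capitals. Since the E-box reads the same on both strands, it counts as 1 match, and 7.26% of all promoters and 5 of the 31 (LSS, SC5D, SCAP, INSIG1 and ABCA1) hold one.
LSS: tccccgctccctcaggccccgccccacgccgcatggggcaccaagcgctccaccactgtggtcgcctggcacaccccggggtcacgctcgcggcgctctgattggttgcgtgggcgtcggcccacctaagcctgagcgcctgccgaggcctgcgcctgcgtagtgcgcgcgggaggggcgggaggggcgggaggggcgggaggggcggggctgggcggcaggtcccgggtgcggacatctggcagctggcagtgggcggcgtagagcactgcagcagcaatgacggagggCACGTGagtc
Of these 5 genes, LSS and SC5D passed the EBF1 test in L-1236 and LSS alone in L-428.

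HMGCS1, which makes HMG-CoA at the entry to the mevalonate pathway, fell in L-428. Its signal was 10.39, 10.33 and 10.03 in control cells and 9.93, 9.89 and 10.02 with EBF1. The lowest control array, replicate 3, lay just above the highest EBF1 array. The fall of 0.30 passed narrowly (SE 0.084, limma, adjusted p = 0.0471) and was lost without any 1 of 9 arrays, that is all but L-428 tGFP replicate 3 and L-1236 tGFP/EBF1 replicates 1 and 2. The adjusted p then reached 0.197. Over each array left out in turn, those that kept the call included, the changes ranged from -0.41 to -0.23. In L-1236 the arrays overlapped, at 10.18, 10.18 and 10.26 in control cells and 9.97, 10.22 and 10.07 with EBF1, and the change was -0.12 (adjusted p = 0.483).

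The genes that fell in L-1236 lie at several steps of the pathway or, for GGPS1, on the branch to protein prenylation. ACAT2, the cytosolic acetoacetyl-CoA thiolase, read 8.09, 7.97 and 8.05 in control cells and 7.75, 7.86 and 7.82 with EBF1. IDI1, the isopentenyl diphosphate isomerase, read 9.52, 9.59 and 9.62 in control cells and 9.22, 9.34 and 9.41 with EBF1. GGPS1, which makes geranylgeranyl diphosphate for protein prenylation, read 8.07, 8.04 and 8.05 in control cells and 7.75, 7.85 and 7.91 with EBF1. MSMO1 removes methyl groups from the sterol ring and gave 10.01, 10.14 and 10.20 in control cells and 9.62, 9.90 and 9.84 with EBF1. In each of these genes the 3 EBF1 arrays lay below the 3 control arrays. ACAT2 fell by 0.23 (limma, adjusted p = 0.0292), IDI1 by 0.26 (adjusted p = 0.0352), GGPS1 by 0.22 (adjusted p = 0.0278) and MSMO1 by 0.33 (adjusted p = 0.0188).

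These falls rested on few arrays. L-1236 tGFP/EBF1 replicate 1, the array with the narrowest range, was the lowest of the EBF1 arrays in all 4 genes. Without it none of the 4 passed, and MVD, the mevalonate diphosphate decarboxylase, was the only gene of the list to fall, by 0.23 (limma, adjusted p = 0.0492). With L-428 tGFP replicate 3 left out as well, all 4 passed again as lower, together with MVD and SQLE. With every array, MVD did not pass, with a log2 change of -0.19 in L-1236 (adjusted p = 0.083) and -0.22 in L-428 (adjusted p = 0.0594). Left out one at a time, L-1236 tGFP replicates 1 and 3 and tGFP/EBF1 replicates 1 and 3 ended the call of ACAT2 (changes -0.26 to -0.20, adjusted p up to 0.127). For IDI1 it was ended by L-1236 tGFP replicates 1, 2 and 3, tGFP/EBF1 replicates 1 and 2 and L-428 tGFP/EBF1 replicate 3 (-0.30 to -0.20, adjusted p up to 0.149). For GGPS1 these were L-1236 tGFP replicates 1, 2 and 3 and tGFP/EBF1 replicate 1 (-0.25 to -0.17, adjusted p up to 0.121), and for MSMO1 tGFP replicates 2 and 3 and tGFP/EBF1 replicate 1 (-0.38 to -0.25, adjusted p up to 0.102). The ranges of change in these parentheses cover each array left out in turn, those that kept the call included. Neighbouring enzymes did not pass, with log2 changes of -0.25 for SQLE (adjusted p = 0.0726) and -0.21 for CYP51A1 (adjusted p = 0.0961).

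In L-428 the same 4 genes did not pass. ACAT2 read 8.14, 8.11 and 8.04 in control cells and 8.03, 7.84 and 7.99 with EBF1 there, a change of -0.14. The change was 0.0018 for IDI1 and -0.092 for MSMO1, with overlapping arrays. GGPS1 read 7.70, 7.57 and 7.53 in control cells and 7.73, 7.71 and 7.73 with EBF1, a change of 0.13 with no overlap (adjusted p = 0.363). GGPS1 is the 1 sterol synthesis gene whose effects in the lines differed by test, by 0.35 (95% interval 0.16 to 0.53, limma, adjusted p = 0.0236). With each array left out in turn, the difference was 0.30 to 0.39. That call was lost without any 1 of 8 arrays, with an adjusted p of up to 0.0646. The arrays were L-428 tGFP replicate 2, all L-428 EBF1 arrays, all L-1236 control arrays and L-1236 tGFP/EBF1 replicate 1. Over all rows, 5.16% differed in effect, beside LRP1 and GGPS1 of the 35.

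SC5D, the lathosterol oxidase near the end of the pathway, rose in L-1236. Its signal was 9.89, 9.98 and 10.02 in control cells and 10.20, 10.53 and 10.60 with EBF1, with every EBF1 array above the control arrays and replicate 1 the lowest of them. The rise was 0.48 (SE 0.10, limma, adjusted p = 0.0044) and passed with each single array left out. In L-428 the arrays overlapped, at 9.54, 9.63 and 9.22 in control cells and 9.60, 9.42 and 9.50 with EBF1, and the change was 0.045. The difference of the effects was -0.44 and did not pass (adjusted p = 0.0991), but it was -0.56 without L-428 tGFP replicate 3 and passed (adjusted p = 0.0163). It also passed without L-1236 tGFP/EBF1 replicate 1, at -0.56 (adjusted p = 0.0155). The synthesis genes that did not pass had log2 changes between -0.22 (MVD) and 0.13 (GGPS1) in L-428 and between -0.25 (SQLE) and 0.12 (EBP) in L-1236.

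**Figure D2:**
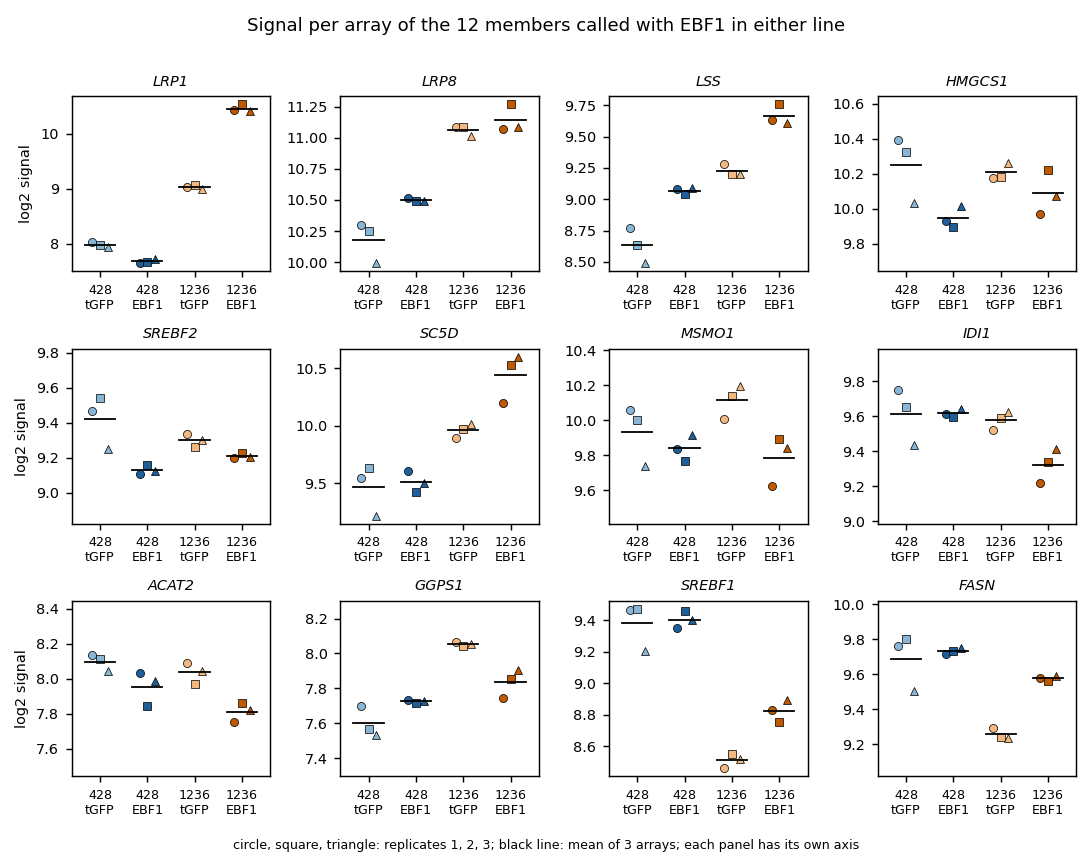
Log2 signal per array of the 12 genes that passed with EBF1 in either line, with replicates 1, 2 and 3 as circle, square and triangle and the group mean as a black line; each panel has its own axis. The LRP1 arrays with EBF1 lie highest in L-1236 (10.40 to 10.53) and lowest in L-428 (7.65 to 7.72), and the LSS arrays with EBF1 lie above their controls in both lines.

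The mean signal over the 18 synthesis genes shows the arrays on which the smaller changes depend. In L-428 it was 9.27, 9.22 and 9.06 in control cells and 9.18, 9.14 and 9.18 with EBF1. In L-1236 it was 9.25 on each control array and 9.12, 9.25 and 9.21 with EBF1. The outlying array was low in each line: control replicate 3 in L-428 and EBF1 replicate 1 in L-1236. Without the first of them, 2 genes rose and 5 fell in L-428: HMGCS1, SREBF2, LRP1, STARD4 and SCD. Without both, 2 rose and 11 fell in L-428, while 6 rose and 6 fell in L-1236. The genes that fell in L-428 then were HMGCS1, MVD, SQLE, DHCR7, SREBF2, SCAP, INSIG1, INSIG2, LRP1, STARD4 and SCD, by 0.18 to 0.41. With each array centred on its median instead, LSS alone rose and LRP1 alone fell in L-428, and no gene fell in L-1236.

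**Figure D3:**
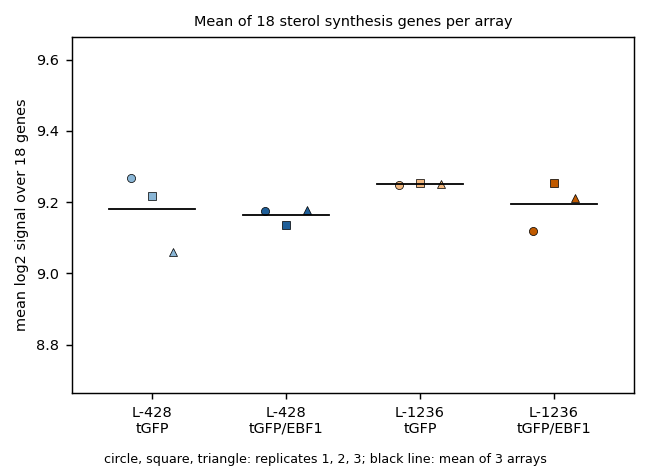
Mean log2 signal over the 18 sterol synthesis genes on each array, by group, with replicates 1, 2 and 3 as circle, square and triangle and the group mean as a black line. Replicate 3 of the L-428 control lies at 9.06 against 9.27 and 9.22, and replicate 1 of L-1236 with EBF1 at 9.12 against 9.25 and 9.21.

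Of the 5 SREBP control genes, 1 fell in L-428 and 1 rose in L-1236, and these were different genes. SREBF2 encodes SREBP2, which mainly drives cholesterol synthesis and uptake. Its signal in L-428 was 9.47, 9.54 and 9.25 in control cells and 9.10, 9.16 and 9.12 with EBF1, with the EBF1 arrays all lower. SREBF2 fell by 0.29 (SE 0.068, limma, adjusted p = 0.0165). The call was lost without any 1 of 4 L-428 arrays, control replicate 1 or 2 or EBF1 replicate 1 or 3. The adjusted p was then up to 0.102, and changes of SREBF2 over each array left out in turn were -0.38 to -0.23. In L-1236 it read 9.34, 9.26 and 9.30 in control cells and 9.20, 9.22 and 9.20 with EBF1, a change of -0.091 that did not pass (adjusted p = 0.512), and the difference of effects did not pass (adjusted p = 0.302, 95% interval -0.40 to 0.00073). Without L-428 tGFP replicate 3 the difference was -0.29 and passed (adjusted p = 0.0229). It did not pass without L-1236 tGFP/EBF1 replicate 1.

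SREBF1 encodes SREBP1, whose main targets include fatty acid synthesis. It read 8.46, 8.55 and 8.52 in L-1236 control cells and 8.83, 8.76 and 8.89 with EBF1, with no overlap. SREBF1 rose by 0.32 (SE 0.071, limma, adjusted p = 0.00668) and passed with each single array left out. In L-428 it read 9.47, 9.47 and 9.21 in control cells and 9.35, 9.46 and 9.40 with EBF1, which overlapped, a change of 0.022. The L-1236 level with EBF1 stayed below every L-428 array. The difference of effects, -0.29, did not pass (adjusted p = 0.11). Without L-428 tGFP replicate 3 it was -0.38 and passed (adjusted p = 0.00798), but without L-1236 tGFP/EBF1 replicate 1 it did not pass. SCAP, INSIG1 and INSIG2 had log2 changes of -0.085, -0.092 and -0.15 in L-428 and -0.11, -0.077 and -0.15 in L-1236, none of them passing.

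The SREBF2 window, at chr22:41832855-41833154 on the plus strand, is shown because it is the 1 window of the 31 with a match to the sterol regulatory element, the SREBP site, searched as TCACNCCAC on both strands. It was chosen after the matches were seen. The match is in capitals and begins at position -133 from the start, and 1.13% of all promoters hold one.
SREBF2: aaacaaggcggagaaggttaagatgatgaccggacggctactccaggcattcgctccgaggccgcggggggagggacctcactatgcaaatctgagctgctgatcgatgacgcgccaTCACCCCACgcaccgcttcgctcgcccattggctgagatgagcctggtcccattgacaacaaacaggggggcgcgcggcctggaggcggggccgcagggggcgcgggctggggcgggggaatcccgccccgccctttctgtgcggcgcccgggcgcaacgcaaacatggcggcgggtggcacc
The synthesis enzymes with a window in the table had no match to these letters within it, which says nothing of other variants of the element or of sites elsewhere.

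None of the 4 genes of sterol transport, esterification and efflux passed limma's adjusted p with EBF1 in either line. STARD4, a carrier of cholesterol between membranes, was the 1 gene below an unadjusted p of 0.05, in L-428, and it fell there when L-428 tGFP replicate 3 was left out. It read 9.77, 9.72 and 9.54 in L-428 control cells and 9.54, 9.40 and 9.43 with EBF1, and 8.54, 8.52 and 8.64 in control cells and 8.60, 8.84 and 8.66 with EBF1 in L-1236. The change was -0.22 in L-428 (adjusted p = 0.121) and 0.13 in L-1236 (adjusted p = 0.354), and the difference of -0.35 did not pass (adjusted p = 0.0638). It passed without L-428 tGFP replicate 3, at -0.42 (adjusted p = 0.0169), and without L-1236 tGFP/EBF1 replicate 1, at -0.40 (adjusted p = 0.0371). For the esterifying enzyme SOAT1 the changes were -0.057 and 0.16. The cholesterol exporters ABCA1 and ABCG1 lay below the array median on all 12 arrays. The change of ABCG1 was -0.059 in L-428 and 0.067 in L-1236. ABCA1 gave 6.27 ± 0.15 in control cells and 6.23 ± 0.052 with EBF1 in L-428, and 6.41 ± 0.042 and 6.41 ± 0.11 in L-1236 (mean ± SD, n = 3).

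Of the 5 fatty acid synthesis genes, FASN rose in L-1236, and none passed limma's adjusted p or an unadjusted p of 0.05 in L-428. FASN is the multifunctional enzyme that builds palmitate. Its signal in L-1236 was 9.30, 9.24 and 9.24 in control cells and 9.58, 9.56 and 9.59 with EBF1, with no overlap. The rise was 0.32 (SE 0.068, limma, adjusted p = 0.00462) and passed with each single array left out. In L-428 the arrays, at 9.76, 9.80 and 9.51 in control cells and 9.71, 9.73 and 9.75 with EBF1, overlapped, and the change was 0.043. The L-1236 arrays with EBF1 lay above the outlying L-428 tGFP replicate 3, at 9.51, and below all other L-428 arrays. The L-1236 control arrays lay below every L-428 array. The difference of effects was -0.27 (adjusted p = 0.122, 95% interval -0.48 to -0.071) and did not pass, whereas without L-428 tGFP replicate 3 it was -0.37 and passed (adjusted p = 0.00382). Without L-1236 tGFP/EBF1 replicate 1 the difference for FASN did not pass. ACACA, the acetyl-CoA carboxylase upstream of FASN, gave 0.018 in L-1236, and the desaturase SCD -0.037, neither of which passed.

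Other genes of lipid metabolism were read from a longer list, of which 41 genes were measured. In L-428, 2 rose and 1 fell, and in L-1236, 3 rose and 3 fell. These are 7.32% and 14.6% of the list, beside 4.34% and 9.64% of all rows. SCARB1, the receptor that takes cholesteryl esters from HDL, rose in both lines. Its signal was 8.82, 8.85 and 8.66 in control cells and 9.63, 9.60 and 9.57 with EBF1 in L-428, and 8.35, 8.29 and 8.22 in control cells and 8.97, 9.05 and 8.99 with EBF1 in L-1236. The EBF1 arrays lay above all control arrays of their line, by 1.77-fold and 1.64-fold on average (limma, adjusted p = 1.11e-07 and 3.75e-07). The difference of the rises was 0.11 and did not pass (95% interval -0.08 to 0.29, adjusted p = 0.631). Both calls held with each array left out.

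ACLY, which makes the cytosolic acetyl-CoA that feeds both pathways, rose in L-1236. It read 11.24, 11.19 and 11.17 in control cells and 11.82, 11.92 and 11.78 with EBF1, a 1.56-fold rise (limma, adjusted p = 8.28e-06) that held with each array left out. In L-428 it read 11.43, 11.48 and 11.16 in control cells and 11.59, 11.57 and 11.57 with EBF1, and the change of 0.22 did not pass (adjusted p = 0.109). The effects differed by -0.42 (limma, adjusted p = 0.0212). This call was lost without any 1 of 7 arrays (L-428 tGFP replicates 1 and 2, the 3 L-428 EBF1 arrays and L-1236 tGFP replicates 2 and 3), with an adjusted p of up to 0.0594. With each of the 12 arrays left out in turn, the difference was -0.52 to -0.36. In L-1236, ACLY and FASN both rose, while ACACA, which acts between them, did not pass.

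The other changes in this list were smaller. NPC2, a carrier of cholesterol out of lysosomes, read 10.24, 10.20 and 10.24 in L-1236 control cells and 10.37, 10.59 and 10.60 with EBF1, and rose by 0.30 (adjusted p = 0.0169). LBR, a sterol reductase of the inner nuclear membrane, read 11.29, 11.34 and 11.39 in control cells and 10.80, 11.03 and 10.88 with EBF1 in L-1236 and fell by 0.44 (limma, adjusted p = 0.000518). LPIN1, a phosphatidate phosphatase, fell by 0.30 in L-1236, from 9.80, 9.72 and 9.67 in control cells to 9.39, 9.45 and 9.44 with EBF1 (adjusted p = 0.00363). ACSL4, which activates polyunsaturated fatty acids, fell in both lines. It read 9.46, 9.48 and 9.28 in control cells and 9.14, 9.17 and 9.14 with EBF1 in L-428 and 9.36, 9.33 and 9.45 in control cells and 8.98, 9.16 and 9.10 with EBF1 in L-1236, falling by 0.26 and 0.30 (limma, adjusted p = 0.0341 and 0.00613). GPAM, which starts glycerolipid synthesis, rose by 0.24 in L-428, from 8.23, 8.14 and 8.17 in control cells to 8.52, 8.33 and 8.43 with EBF1 (adjusted p = 0.0382). The falls of LBR, LPIN1 and ACSL4 in L-1236 held with each array left out. The call of ACSL4 in L-428 was lost without any 1 of 6 arrays, with an adjusted p of up to 0.143. These were all L-428 arrays but tGFP replicate 3, and L-1236 tGFP/EBF1 replicate 3. That of GPAM was lost without any 1 of 9 arrays, with an adjusted p of up to 0.22. These were all arrays but L-428 tGFP/EBF1 replicate 2 and L-1236 tGFP/EBF1 replicates 1 and 2. The call of NPC2 was lost without L-1236 tGFP replicate 2 or tGFP/EBF1 replicate 2 or 3, with an adjusted p of up to 0.0963. With each array left out in turn, the changes were -0.32 to -0.22 for ACSL4 in L-428. They were 0.20 to 0.29 for GPAM in L-428 and 0.26 to 0.37 for NPC2 in L-1236.

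**Figure D4:**
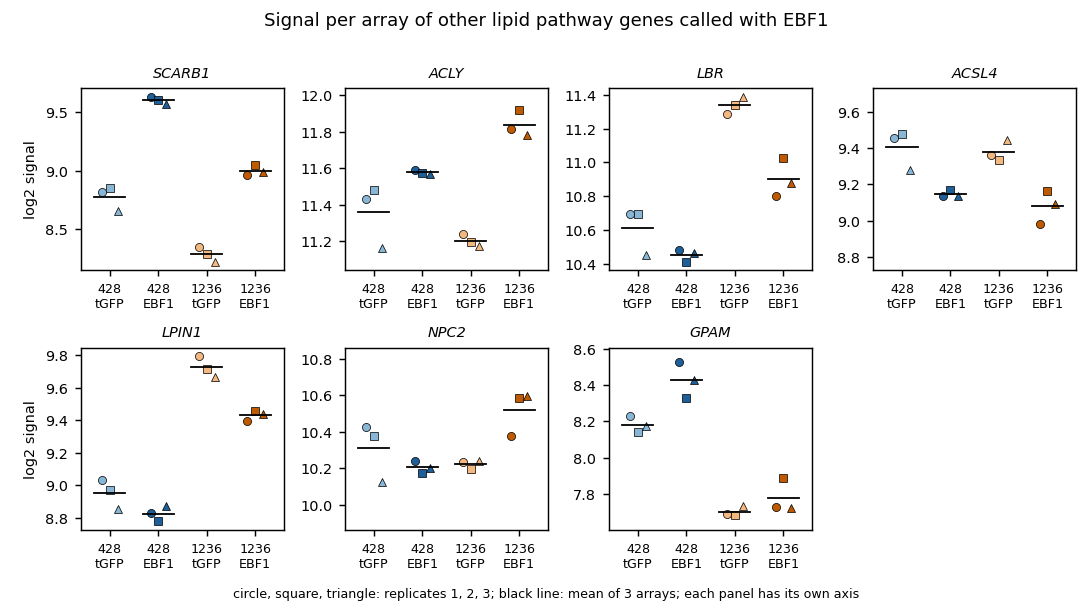
Log2 signal per array of the 7 further lipid genes that passed with EBF1 in either line, with replicates 1, 2 and 3 as circle, square and triangle and the group mean as a black line; each panel has its own axis. SCARB1 lies higher with EBF1 in both lines, and the L-1236 arrays of ACLY with EBF1 lie between 11.78 and 11.92, above every other array of that gene.

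More genes of the list differed between the control cells of the lines than changed with EBF1. Of the 35 genes, 10 were higher in L-428 and 12 higher in L-1236, beside 26.1% and 21.7% of all tested rows. Without L-428 tGFP replicate 3 these were 13 and 10 genes. With every array and the 2-fold limit, 3 were higher in L-428 and 1 in L-1236, beside 4.16% and 3.04% of rows. The median difference over the list, L-428 minus L-1236, was 0.035, and over all rows -0.0063. In both directions together, 62.9% of the list differed against 47.9% of all rows. With dim rows removed as above, 21 of 32 genes differed against 67.4% of rows, close to the background of that set. A row bright in only 1 line stays in that set, which can raise the share that differs between lines.

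FADS1, the delta-5 fatty acid desaturase, differed most. Its control signal was 9.58, 9.62 and 9.23 in L-428 and 6.83, 6.60 and 6.68 in L-1236, a 6.84-fold difference (limma, adjusted p = 4.27e-15). With EBF1 it read 9.51, 9.40 and 9.46 in L-428 and 6.87, 6.70 and 6.78 in L-1236, so the gap was present in both conditions. FADS1 lay below the array median on all 6 L-1236 arrays, where the signal may include background. Its neighbour in the pathway, FADS2, which has the delta-6 activity, differed in the same direction, with 7.74, 7.81 and 7.65 in L-428 and 7.09, 7.19 and 7.12 in L-1236, also below the array median on the 6 L-1236 arrays, a difference of 0.60 (adjusted p = 1.01e-06). All 5 fatty acid synthesis genes were higher in L-428, with 4 passing after quantile normalization. ACACA was higher by 0.55, FASN by 0.43 and SCD by 0.22, with overlapping arrays for SCD.

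DHCR7, the enzyme that completes cholesterol in 1 branch of the pathway, read 10.37, 10.39 and 9.99 in L-428 control cells and 9.00, 9.02 and 9.01 in L-1236. STARD4 read 9.77, 9.72 and 9.54 in L-428 and 8.54, 8.52 and 8.64 in L-1236, as above. DHCR7 was 2.36-fold and STARD4 2.16-fold higher in L-428, with no overlap of arrays (limma, adjusted p = 3.28e-10 and 2.90e-10). Of the receptors in the main list, the 2 with signals above the median went the other way. Receptors of the longer lipid list lay on both sides, with SORL1 higher in L-1236 and LRP6 higher in L-428. LRP1 was 2.06-fold higher in L-1236 (adjusted p = 1.71e-11), and LRP8 was also higher there, with a difference of -0.88 for L-428 minus L-1236 (adjusted p = 8.82e-09). For FADS1, DHCR7, STARD4 and LRP1 the call with 2-fold held with each array left out.

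Within sterol synthesis, 2 genes were higher in L-428 control cells, DHCR7 and the sterol reductase TM7SF2 (0.39), and 7 were higher in L-1236. The latter, with the difference L-428 minus L-1236 in parentheses, were LSS (-0.59), SC5D (-0.50), GGPS1 (-0.46), MVK (-0.31), CYP51A1 (-0.20), NSDHL (-0.18) and the shared row of HSD17B7 (-0.68). Without L-428 tGFP replicate 3, CYP51A1 and NSDHL did not pass, while SQLE, SREBF2 and SCAP passed as higher in L-428. CYP51A1 has 2 rows, and the dimmer gave 0.29 in the opposite direction (adjusted p = 0.0196), so its direction is not settled. Among the control genes, SREBF1 was higher in L-428 by 0.87 (adjusted p = 4.27e-09), while INSIG1 and INSIG2 were higher in L-1236, with differences of -0.26 and -0.30. LSS, SC5D and LRP1, which rose with EBF1 in L-1236, were already higher in that line's control cells, whereas SREBF1 and FASN, which also rose there, were lower.

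**Figure D5:**
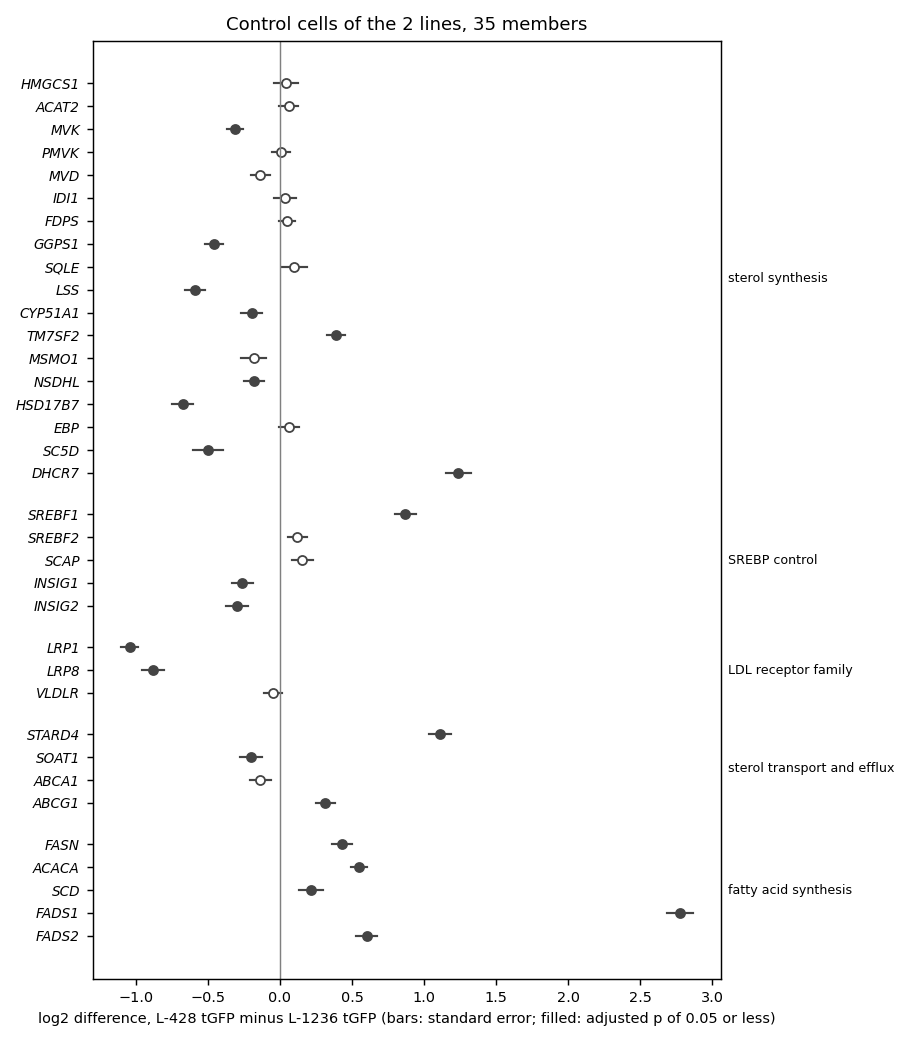
Log2 difference between control cells (L-428 tGFP minus L-1236 tGFP) of the 35 measured genes, ordered by role. Bars are standard errors of the fit, and filled points passed an adjusted p of 0.05. FADS1 lies farthest out at 2.77, all 5 fatty acid synthesis genes lie above 0, and LRP1 and LRP8 lie at -1.04 and -0.88.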

How the data were processed

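RNA of sorted tGFP-positive cells was amplified and hybridised to 12 arrays, per the labels' protocols. The authors deposited 1 value per row and array, taken here as log2 because the values run from 4.38 to 14.27. The log base and any normalization were not given in the sources used here. Of 32321 rows, 19158 carry 1 symbol, 1388 several and 11775 none in a dated platform annotation, and 19128 of the first matched RefSeq by gene ID. The 20546 rows with a symbol were fitted without rescaling in limma 3.58.1 (R 4.3.3) with 4 group means, with Benjamini-Hochberg adjustment over those rows in each contrast. The number of arrays, 3 a group, limits precision; the median SE of a change was 0.069. The fit was tested on simulated data. A gene with several rows of its own was read from the brightest. Named were the genes that passed in an EBF1 contrast, in the difference, or at 2-fold between control cells, and others with their role group. Members, lists and the 2 arrays left out together were chosen with earlier results of these data known. Alternatives were other scalings, row sets, thresholds and variance models, array weights, a replicate block and left-out arrays. Figures were drawn with matplotlib 3.10.9.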

Additional observations from a re-analysis of the deposited data

Results flagged for a closer look

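The effect of EBF1 differed between the lines, by limma's test of the difference over all rows, in 2 genes of the list. These are 5.71% of the 35 genes, close to the 5.16% of all rows. For LRP1 the effect in L-428 minus that in L-1236 was -1.73 (adjusted p = 4.32e-10), with every EBF1 array of L-1236 higher and every EBF1 array of L-428 lower than its controls. For GGPS1 it was 0.35 (adjusted p = 0.0236), a call lost without any 1 of 8 arrays. In the longer lipid list the same test passed for ACLY at -0.42 (adjusted p = 0.0212) and for the lysosomal cholesterol carrier NPC2 at -0.40 (adjusted p = 0.0383), or 4.88% of that list. The ACLY call was lost without any 1 of 7 arrays. The NPC2 call was lost without any 1 of 10 arrays, that is all but L-428 tGFP replicate 3 and L-1236 tGFP/EBF1 replicate 1. The adjusted p was then up to 0.11, and the differences over each array left out in turn were -0.49 to -0.34. Groups of 3 arrays were not tested for outlying samples.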

How the results depend on the processing

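For the 31 changes and differences that passed in named genes, 567 of 678 alternative values kept their direction and their side of the threshold, 111 kept the direction without passing, and none reversed. Changes that did not pass can turn: without L-428 tGFP replicate 3 the L-428 change of FASN went from 0.043 to -0.048 and that of SREBF1 from 0.022 to -0.065. Counts of the EBF1 comparisons moved more. In L-428, 892 rows and 5 genes of the list passed. Rows numbered 1614 after quantile normalization (964 higher, 650 lower), 498 after median centring (345 and 153), 2592 with array weights (1090 and 1502), 1984 without both outlying arrays (703 and 1281), 434 at an adjusted p of 0.01 and 20 with 2-fold. Genes of the list numbered 2 after median centring, 3 with every row tested, 12 with array weights, 3 with only the groups compared, 13 without both arrays, 2 at 0.01 and 0 with 2-fold. In L-1236, 1981 rows and 9 genes passed. Rows numbered 3063 after quantile normalization (1445 and 1618), 5176 with array weights, 1131 at 0.01 and 30 with 2-fold; genes numbered 5 after median centring, 5 with every row, 14 with array weights, 5 at 0.01 and 1 with 2-fold. The difference of effects gave 1061 rows and 2 genes. Rows numbered 1865 after quantile normalization (1092 and 773), 599 after median centring (401 and 198), 676 with every row, 3194 with array weights and 1897 without both arrays (784 and 1113). Genes numbered 10, 1, 1, 11 and 9 in the same order. With single arrays left out, rows ranged from 463 to 1307 in L-428, 1294 to 2898 in L-1236 and 672 to 1457 in the difference, and genes from 2 to 7, 5 to 11 and 1 to 7. Testing every row adds unnamed rows to the adjustment, and array weights were set gene by gene because the default did not converge; other causes were not tested. In the comparison of control cells, counts with 2-fold stayed within 1405 to 1689 rows and 3 to 5 genes.

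With the replicate number as a block, 4 genes of the list passed in L-428, 7 in L-1236, 2 in the difference and 4 at 2-fold between control cells, and 731, 1774, 885 and 1479 rows. Same-numbered arrays correlated at -0.21 to 0.23 in L-428 and -0.074 to 0.28 in L-1236 after removal of group means. In groups this small, such values cannot tell whether same-numbered samples were prepared together. Signals carry no count or background here, which limits the reading of dim genes such as VLDLR, ABCA1 and ABCG1.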

Other observations

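In the longer lipid list, 19 of 41 genes were higher in L-428 control cells and 6 higher in L-1236, beside 26.1% and 21.7% of all tested rows. SORL1, a sorting receptor related to the LDL receptor family, read 8.90, 8.93 and 8.67 in L-428 control cells and 11.73, 11.58 and 11.59 in L-1236, a difference of -2.80 (limma, adjusted p = 6.07e-16). MYLIP, the ubiquitin ligase that marks lipoprotein receptors for degradation, was also higher in L-1236, with a difference of -1.06 (adjusted p = 1.34e-09). LRP6, a Wnt co-receptor of the same family, went the other way, with 8.83, 8.88 and 8.78 in L-428 and 7.26, 7.18 and 7.23 in L-1236, a difference of 1.61 (adjusted p = 2.24e-14). LIPA, the lysosomal acid lipase, was higher in L-428 by 1.16, and HSD17B12, an enzyme of fatty acid elongation, by 1.06. None of these 5 genes passed with EBF1 in either line.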
